A study of Mus musculus with 20 samples.

Results

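The estrogen receptors and the cofactors that work with them were followed in mouse liver through 22 microarray probes for 9 genes. The probes were all those that the array carries for Esr1, Esr2, Gper1, Nrip1, Ncoa1, Ncoa2, Ncoa3, Ncor1 and Med1, among 55681 non-control probes, and each was kept apart. Esr1, Ncor1 and Med1 had 4 probes each, Ncoa1 had 3, Nrip1 and Ncoa3 had 2 each, and Esr2, Gper1 and Ncoa2 had 1 each. The Gper1 probe is listed under the older name Gpr30 and was matched through its transcript, NM_029771.

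Ovaries were removed from all 20 mice at 4 weeks, the mice were gavaged once at 9 weeks, and livers were taken 4 hours later. The 4 groups of 5 mice were ERa+/+ (wild type) given placebo, ERa+/+ given estradiol (E2, the main circulating estrogen, 1 mg/kg), ERa-/- (null) given placebo and ERa-/- given E2, with 1 array per mouse. Placebo was castor oil with 5% ethanol. Wild-type breeders came from the same parents as the null mice, and the labels do not say which piece of the receptor gene the null allele lacks. The study asked which liver transcripts respond to estrogen and which of them need the receptor, and the 9 genes below are the receptors themselves and part of the machinery they recruit.

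Estrogen receptor alpha, encoded by Esr1, is a nuclear receptor that binds DNA once estradiol occupies its ligand pocket, and it is the main estrogen receptor of hepatocytes. Esr2 encodes estrogen receptor beta, a related nuclear receptor, and Gper1 encodes a G protein-coupled receptor of the cell membrane that responds to estrogen. The DNA-bound receptor does not act alone. Ncoa1, Ncoa2 and Ncoa3 encode the p160 coactivators, which dock on the ligand-bound receptor and bring in histone acetyltransferases. Med1 is the Mediator subunit that contacts nuclear receptors and links them to RNA polymerase II. Ncor1 is a corepressor that brings histone deacetylase 3 to receptors that are not activated. Nrip1, also called RIP140, binds the ligand-bound receptor and damps its activity, and it is an estrogen target in several tissues.

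The Esr1 probes read 4 places of the gene, and their sequences are shown because what the null livers still hold depends on where each probe sits. On the mm9 build, the array files place A_55_P2030883 at chr10:5489352-5489411, A_66_P138072 at chr10:5379218-5379277, A_51_P474658 at chr10:5345046-5345105 and A_52_P237077 at chr10:5343056-5343115, all on the minus strand. The files also place them along transcripts: A_55_P2030883 starts at base 1225 of NM_007956, A_51_P474658 at base 1993 and A_52_P237077 at base 3983, while A_66_P138072 starts at base 2662 of another transcript, AK054182. The probes at bases 1993 and 3983 are 1990 bases apart both along the transcript and on the genome, so they lie in one stretch without an intron between them. The probes at bases 1225 and 1993 are 768 bases apart along the transcript and 144306 bases apart on the genome, so at least 1 intron separates them. Exon and UTR annotation on mm9 was not used here. The whole sequence, 60 bases, is given for the first probe and the first 30 bases for the other 3, with nothing in capitals.
A_55_P2030883: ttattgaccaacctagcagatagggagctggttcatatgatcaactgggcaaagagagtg
A_66_P138072: aagatgctgttcaagaaccacaaatggaaa
A_51_P474658: tccccgaaaggttctgagaatccctgcaac
A_52_P237077: ttttttgtagacgtttcaaactaccgtgtc

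Levels are given as log2 processed intensity minus the 75th percentile of the array, so that 0 is the intensity at that percentile, and a level is read only against the same probe in other mice. A probe entered the test if some group had it well above background in 4 or more of its 5 mice. This held for 21 of the 22 probes and for 30958 probes of the array, and A_51_P474658 of Esr1 was the member left untested. The arrays had 51.6% to 70.0% of spots well above background, and no spot was saturated. Pairs of arrays of 1 group correlated at 0.978 to 0.994 and pairs of different groups at 0.975 to 0.993. All 6 hepatocyte markers were well above background on all 20 arrays, while none of 3 adipocyte and none of 4 pancreas markers passed the filter. The samples are pieces of whole liver, so fewer cells of a type and less RNA per cell cannot be told apart.

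Esr1 was lower in null livers at all 3 tested probes, under placebo and under E2. Signal well above background remained in every null liver at 2 of them, and whether it is Esr1 transcript was not tested. At the 2 probes that were well above background in all livers, A_52_P237077 and A_55_P2030883, the null livers held 21.3% to 33.3% of the wild-type processed signal. The ratio depended on the processing: it was 29.7% to 57.6% with normexp and 26.7% to 50.9% in the authors' deposited log2 values. All 4 differences were called in both. The normexp run added an offset of 50 to every intensity, which pulls log2 differences toward 0, most at dim probes. Its ratios are thus not shares of the signal above background, and the part of the offset was not tested. With adjustment over all tested probes, 3 of the 21 member probes were called under placebo, against 0.0614% of all probes, and 3 of 21 under E2, against 0.443%. All of these calls were Esr1 probes and all were lower, where 0.0388% and 0.359% of all probes were called lower. Among them A_66_P138072 had entered the test only through the wild-type groups, where it was high. The genotype comparison checks the labels, and each library stood on its labelled side at these 3 probes. The arrays lay on 4 slides that each held several groups, and all 18 within-slide differences at these probes were below 0. Whether a probe lies inside the disrupted part of the gene is not known from the labels, and a probe outside it need not differ between the genotypes.

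At A_52_P237077, at base 3983 of NM_007956, the 5 wild-type livers under placebo read 0.59, 0.39, 0.57, -0.04 and 0.42. The null livers under placebo read -0.92, -2.16, -1.51, -1.48 and -1.98. No null liver reached a wild-type one: the highest null liver was 0.88 log2 units below the lowest wild type. The mean difference was -2.0 ± 0.23 (SE; 95% interval -2.47 to -1.53; limma adjusted p = 0.00036). Under E2 the wild types read 0.84, 0.12, 1.02, 0.83 and 0.21 and the nulls -1.31, -1.59, -1.73, -1.41 and -2.09, again with no overlap. The difference under E2 was -2.23 ± 0.23 (SE; 95% interval -2.71 to -1.76; limma adjusted p = 1.56e-05). Within slides the difference ran from -2.23 to -1.47 under placebo and from -2.84 to -1.79 under E2.

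This probe is printed 10 times on each array, which gives a measure of spot-to-spot error. The SD over its spots ran from 0.032 to 0.158 log2 units with a median of 0.077, after 2 spots were left out. The SD over 5 mice was 0.25 in wild types under placebo, 0.41 in wild types under E2, 0.49 in nulls under placebo and 0.31 in nulls under E2. The spread between mice was therefore the larger of the pair in each group. All 10 null arrays were well above background here. The null signal was 25.0% of wild type under placebo (95% interval 18.0% to 34.7%) and 21.3% under E2 (15.3% to 29.6%).

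At A_55_P2030883, which lies upstream in the transcript, the wild-type livers under placebo read -1.38, -1.998, -1.48, -2.29 and -1.97. The null livers read -2.98, -4.22, -3.12, -3.15 and -4.04. The nulls fell into a nearer trio and a lower pair (replicates 2 and 5), and the same pair was lowest at A_52_P237077. The difference was -1.68 ± 0.24 (SE; limma adjusted p = 0.0051), and it was not called when only the placebo arrays entered the fit (adjusted p = 0.133). Under E2 the wild types read -1.22, -1.72, -1.61, -1.42 and -2.10 and the nulls -3.22, -3.41, -3.29, -2.82 and -3.28, a difference of -1.59 ± 0.24 (SE; limma adjusted p = 0.0016). All 10 null arrays were well above background, and the null signal was 31.3% of wild type under placebo (95% interval 22.1% to 44.4%) and 33.3% under E2 (23.5% to 47.3%). With normexp and its offset the differences were -0.80 and -0.81. Those are ratios of 57.6% and 57.2%, outside the intervals above, but they include the added constant.

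At A_66_P138072, the probe of the other transcript, wild-type livers under placebo were close together at -3.09, -3.10, -2.75, -3.04 and -3.12. The null livers read -4.96, -5.51, -4.79, -4.57 and -5.64, and none of these 5 arrays was well above background. The fitted difference was -2.08 ± 0.20 (SE; limma adjusted p = 5.01e-05). The probe passed the filter only through the wild-type groups, so its entry depended on the groups where it was high. It was also called under both treatments when no filter was applied. In the processed signal alone, the bound that the background sets is at least 2.83-fold lower. That bound takes the wild-type mean over the null mean with each null array set no lower than the dimmest signal well above background on it. Under E2 the wild types read -2.48, -3.01, -3.15, -3.22 and -3.58 and the nulls -4.33, -4.67, -4.78, -4.48 and -4.42, of which 2 arrays were well above background. The difference was -1.45 ± 0.20 (SE; limma adjusted p = 0.000517), with no fold given because 3 of the 5 null arrays hold only a bound. For this dim probe the call depended on the processing. With normexp and its offset of 50 the differences were -0.50 under placebo (limma adjusted p = 0.102) and -0.37 under E2 (adjusted p = 0.217). In the deposited log2 values they were -0.67 and -0.44, both called. Under placebo the ratio of null to wild type was thus 70.6% with normexp and 62.8% in the deposited values. The 2.83-fold bound is not set against these. The normexp value includes the offset, and the background treatment of the deposited values is not given.

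The remaining Esr1 probe, A_51_P474658, had little signal in any group. It was well above background on 0 wild-type arrays under placebo, 2 wild-type arrays under E2, 0 null arrays under placebo and 1 null array under E2. The wild types ran from -6.83 to -4.94 under placebo and from -5.09 to -4.00 under E2, and the nulls under placebo from -7.28 to -5.86. The nulls under E2 read -6.92, -1.002, -6.34, -6.73 and -7.27. Replicate 2 stood far above the other 4, none of which was well above background, while it read -1.59 at A_52_P237077, within the range of its group. No fold is given between genotypes because the probe is near background on most arrays, although it shares an uninterrupted stretch of genome with A_52_P237077, which was bright on all 20.

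**Figure D1:**
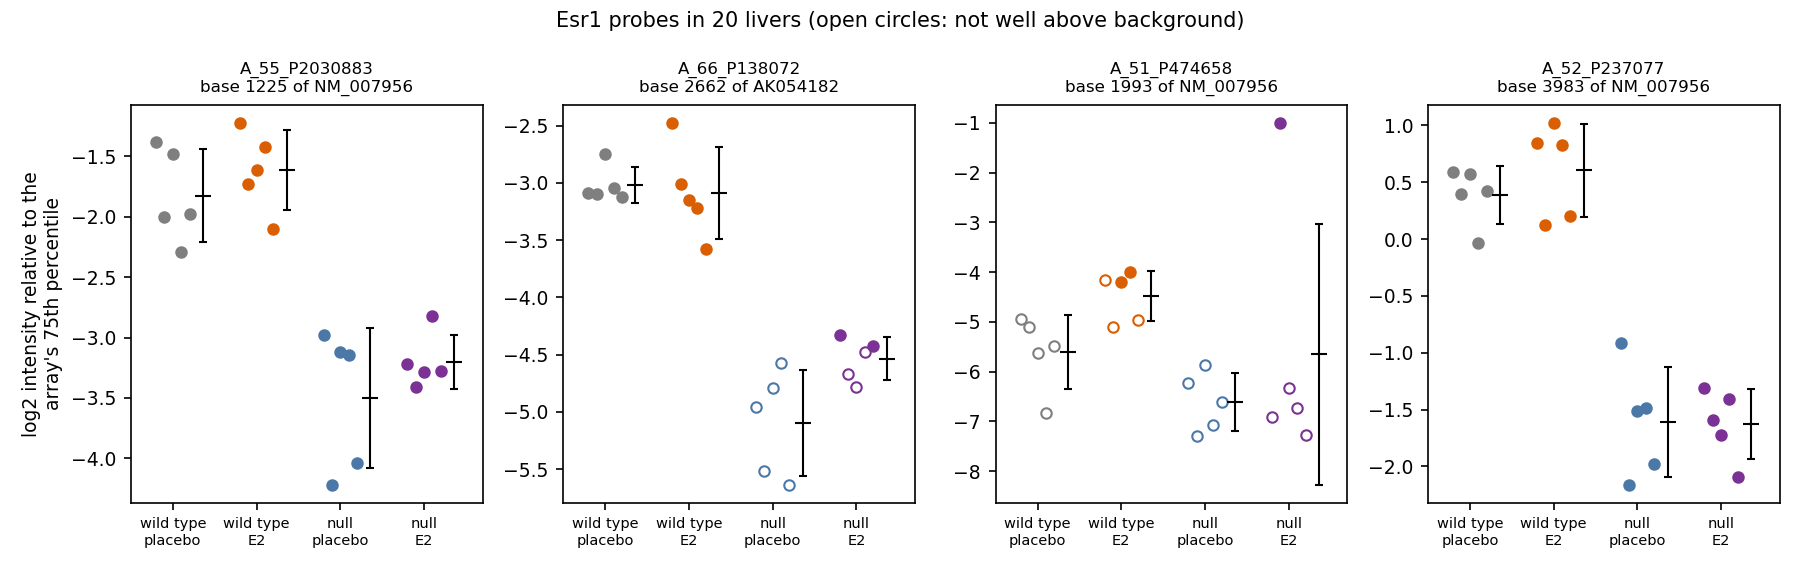
Log2 level (y axis, relative to each array's 75th percentile) of the 4 Esr1 probes in 5 livers of each group, with 1 circle per mouse, open where the probe was not well above background, and black bars for the mean ± SD. In the first, second and last panels every null liver lies below every wild-type liver of the same treatment, and in the third only 3 of 20 circles are filled.

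E2 for 4 hours gave no called change of Esr1 in either genotype. In wild types the E2 effect was 0.21 ± 0.23 (SE; 95% interval -0.26 to 0.69) at A_52_P237077, 0.21 ± 0.24 (-0.30 to 0.71) at A_55_P2030883 and -0.07 ± 0.20 (-0.49 to 0.35) at A_66_P138072, with limma adjusted p of 0.834, 0.850 and 0.953. These intervals allow a rise of up to 0.71 and a fall of up to -0.49 on the log2 scale. The wild-type livers given E2 were split at A_52_P237077, with 3 at 0.83 to 1.02, above all 5 placebo livers, and 2 at 0.12 and 0.21, inside the placebo range.

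In nulls the E2 effect was -0.02 ± 0.23 (SE) at A_52_P237077 and 0.30 ± 0.24 at A_55_P2030883, with limma adjusted p of 0.996 and 0.911. At A_66_P138072 it was 0.56 ± 0.20 (95% interval 0.14 to 0.98), with an unadjusted limma p of 0.0115 and an adjusted p of 0.812, from 0 arrays well above background without E2 and 2 with it. The difference between the E2 effects at that probe (wild type minus null) was -0.63 ± 0.28 (SE; limma adjusted p = 0.695). Over the array 6.04% of probes had an unadjusted p under 0.05 for E2 in nulls, and 1 of the 21 member probes did.

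The remaining receptors kept overlapping levels in all groups. Esr2 (A_55_P2008197, chr12:77221426-77221485, minus strand) read 3.11, 3.03, 3.03, 3.19 and 2.89 in wild types under placebo and 3.02, 3.21, 3.03, 2.97 and 3.13 under E2. In nulls it read 2.91, 2.80, 2.99, 2.85 and 3.04 under placebo and 3.57, 3.30, 2.91, 2.93 and 2.86 under E2. The pair at 3.57 and 3.30 lay above the other 18 livers, and the remaining 3 nulls given E2 lay within the range of the placebo nulls. The groups in ascending order of their mean were null placebo at 2.92 ± 0.10 (SD, n = 5), wild-type placebo at 3.05 ± 0.11, wild-type E2 at 3.07 ± 0.09 and null E2 at 3.11 ± 0.31, and the ranges of neighbours in that order overlapped.

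For Esr2 the null minus wild-type difference was -0.13 ± 0.12 (SE; 95% interval -0.37 to 0.11; limma adjusted p = 0.777) under placebo and 0.04 ± 0.12 (-0.20 to 0.28; adjusted p = 0.933) under E2. The E2 effect was 0.02 ± 0.12 (-0.22 to 0.26; adjusted p = 0.976) in wild types and 0.20 ± 0.12 (-0.04 to 0.44; adjusted p = 0.857) in nulls. At this 1 probe, a larger signal where Esr1 was lower was thus bounded at 0.11 log2 units under placebo and 0.28 under E2. Whether the probe reads Esr2 alone was not tested.

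Gper1 (A_51_P185939, chr5:139903348-139903407, plus strand) was well above background on all 20 arrays, though dim. It read -3.11, -2.77, -3.59, -3.22 and -3.02 in wild types under placebo, -3.17, -3.37, -3.66, -3.28 and -3.18 in wild types under E2, -3.18, -4.32, -3.74, -3.24 and -3.03 in nulls under placebo and -3.39, -2.96, -3.84, -3.34 and -3.51 in nulls under E2. The groups overlapped throughout. The lowest liver was the null placebo replicate 2, which was also the lowest of its group at A_52_P237077 and A_55_P2030883 of Esr1. The genotype difference was -0.36 ± 0.22 (SE; 95% interval -0.81 to 0.09; limma adjusted p = 0.621) under placebo, -0.16 without that liver, and -0.08 ± 0.22 (-0.53 to 0.38; adjusted p = 0.937) under E2. The E2 effect was -0.19 ± 0.22 (adjusted p = 0.848) in wild types and 0.10 ± 0.22 (adjusted p = 0.979) in nulls.

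**Figure D2:**
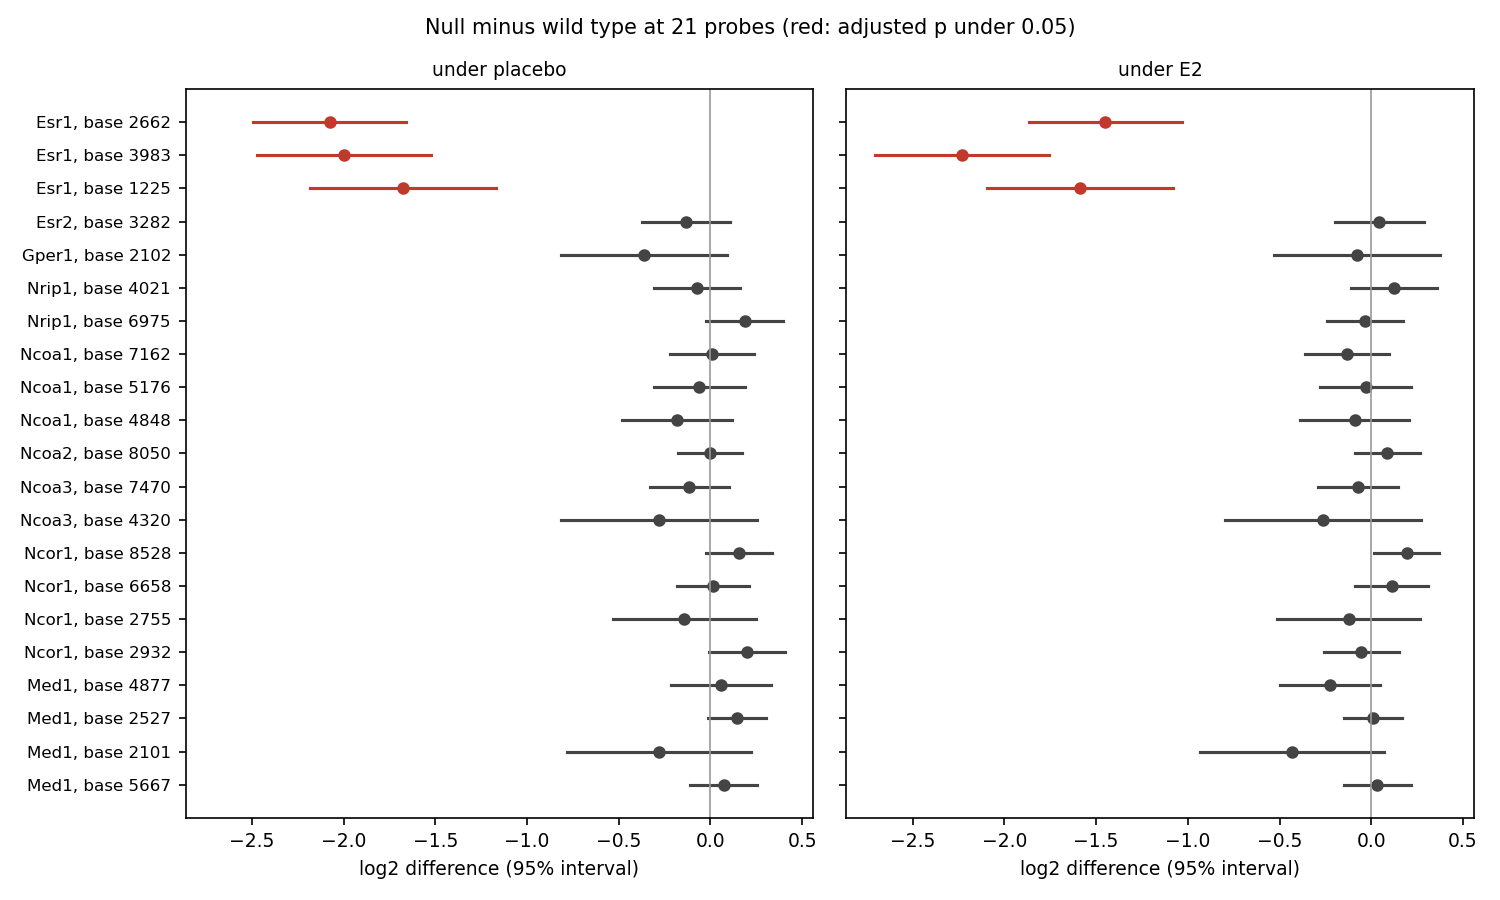
Null minus wild-type log2 difference (x axis) at the 21 tested probes under placebo (left) and under E2 (right), with 95% intervals as lines and red for an adjusted p under 0.05. The 3 Esr1 probes lie between -2.23 and -1.45, and the other 18 lie between -0.43 and 0.20.

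The 16 coregulator probes gave no call in any of the 5 comparisons. For E2 in wild types the array-wide share of calls was 0.304%, for E2 in nulls 0.00323% and for the difference between the E2 effects 0.184%, so with 16 probes a count of 0 is near the background. With each array scaled to its median in place of the 75th percentile, the median of all probes shifted by -0.22 for E2 in wild types and -0.11 for E2 in nulls. It shifted by -0.12 for the difference between the E2 effects and by 0.12 for genotype under E2. A member difference could thus change sign with this scaling only if it was smaller in size than the shift and of the opposite sign. The 16 differences ran from -0.23 to 0.16 for E2 in wild types, with a median of 0.00 against 0.00 over all tested probes, and from -0.18 to 0.13 for E2 in nulls, with a median of -0.07 against -0.01. For the difference between the E2 effects they ran from -0.20 to 0.28. For null against wild type they ran from -0.28 to 0.20 under placebo and from -0.43 to 0.19 under E2. The 95% interval stayed inside a 1.5-fold change in either direction at 15 of 16 probes for E2 in wild types and at 14 of 16 in each of the comparisons of E2 in nulls, genotype under placebo and genotype under E2, and at 13 of 16 for the difference between the E2 effects.

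Among the corepressors, Nrip1 was read by A_51_P152747 (chr16:76291555-76291614) and A_52_P413584 (chr16:76288478-76288537), both on the minus strand. At the brighter probe, A_51_P152747, the mean was 1.41 ± 0.10 (SD, n = 5) in wild types under placebo, 1.23 ± 0.11 in wild types under E2, 1.34 ± 0.26 in nulls under placebo and 1.35 ± 0.17 in nulls under E2. Wild-type livers ranged from 1.26 to 1.49 under placebo and from 1.08 to 1.36 under E2, so they overlapped. The E2 effect in wild types was -0.18 ± 0.11 (SE; 95% interval -0.42 to 0.05; limma adjusted p = 0.682). At A_52_P413584 the same effect was 0.14 ± 0.10 (-0.07 to 0.35; adjusted p = 0.729). The Nrip1 probes thus had opposite signs, neither past the test, and a rise above 0.35 log2 units after 4 hours lay outside both intervals.

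Ncor1 was read by 4 probes on chromosome 11. At A_52_P561927 (chr11:62134649-62134708) wild types were at 1.83 ± 0.10 (SD, n = 5; 1.72 to 1.96) under placebo and 1.60 ± 0.13 (1.45 to 1.73) under E2, and nulls at 1.84 ± 0.15 and 1.71 ± 0.16. The E2 effect in wild types, -0.23 ± 0.09 (SE; 95% interval -0.43 to -0.03), had an unadjusted limma p of 0.0267 and an adjusted p of 0.543. It was the smallest unadjusted p of any member for E2 in wild types, where 8.31% of all probes had one under 0.05. The other 3 Ncor1 probes had E2 effects in wild types of -0.03, 0.07 and 0.07.

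Ncor1 also held the only member outside Esr1 whose groups did not overlap. At A_55_P2121466 (chr11:62130192-62130251) nulls under E2 ran from -1.10 to -0.97 and wild types under E2 from -1.32 to -1.10, and the closest pair was -1.098 against -1.105. The difference was 0.19 ± 0.08 (SE; 95% interval 0.02 to 0.37; limma adjusted p = 0.50). Groups failed to overlap at 4 of 21 member probes under E2, against 2.33% of all probes, and at 3 of 21 under placebo, against 1.7%. Of these, 3 in each treatment were Esr1 probes. Outside Esr1 the counts were 1 of 18 under E2 and 0 of 18 under placebo. Under placebo the same probe had a difference of 0.16 ± 0.08 with overlapping groups. The difference under E2 was 0.11 at A_52_P561927, -0.12 at A_55_P2165974 and -0.05 at A_55_P2165969, so the 4 Ncor1 probes did not share a sign.

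The p160 coactivators gave no call. Ncoa1 at A_55_P2130975 (chr12:4249455-4249514) was at 2.40 ± 0.13 (SD, n = 5) in wild types under placebo, 2.30 ± 0.16 in wild types under E2, 2.34 ± 0.26 in nulls under placebo and 2.27 ± 0.15 in nulls under E2. Its E2 effect was -0.10 ± 0.12 (SE) in wild types and -0.07 ± 0.12 in nulls, and the genotype differences were -0.06 and -0.03. The other Ncoa1 probes, A_66_P130582 and A_66_P126138, had E2 effects in wild types of 0.01 and -0.18. Within groups the 3 Ncoa1 probes moved together, with correlations of deviations from the group means of 0.63, 0.75 and 0.77 over 20 arrays. They also correlated with each array's percentage of spots well above background, at 0.38 (A_66_P130582), 0.54 (A_55_P2130975) and 0.49 (A_66_P126138). The part of array brightness in their agreement was not tested.

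Ncoa2 was read by 1 probe. At A_55_P2087825 (chr1:13129343-13129402) the group means were 1.99 ± 0.10 (SD, n = 5), 1.86 ± 0.12, 1.98 ± 0.16 and 1.95 ± 0.06 for wild-type placebo, wild-type E2, null placebo and null E2. The E2 effect in wild types was -0.13 ± 0.08 (SE; 95% interval -0.30 to 0.05; limma adjusted p = 0.711), and the genotype difference under placebo was 0.00 ± 0.08.

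Ncoa3 was read by a bright and a dim probe. At the bright one, A_55_P2183750 (chr2:165898682-165898741), the E2 effect was -0.08 ± 0.10 (SE) in wild types and -0.04 ± 0.10 in nulls, and the genotype difference was -0.12 ± 0.10 under placebo and -0.07 ± 0.10 under E2. At the dim one, A_55_P2071868, the wild types given E2 ran from -3.28 to -1.45. The -1.45 was replicate 1, on the array with the most spots well above background (70.0%), and over all 20 arrays this probe correlated at 0.75 with that percentage after group means were subtracted. The part of array brightness in that value was not tested. Its genotype differences were -0.28 ± 0.26 (SE; 95% interval -0.82 to 0.26) under placebo and -0.26 ± 0.26 (-0.80 to 0.27) under E2. Leaving out 1 mouse at a time moved the wild-type E2 effect at this probe between -0.20 and 0.26, with no call.

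Med1 was read by 4 probes, and 1 of them carries a repeat. A stretch of A_55_P2092501 (chr11:98014129-98014188) is shown for the repeat, with capitals for 6 copies of CTG in a row, where every other member probe had at most 1.
A_55_P2092501: acctatttgCTGCTGCTGCTGCTGCTGgag
Its group means were 4.42 ± 0.33 (SD, n = 5) in wild types under placebo, 4.46 ± 0.60 in wild types under E2, 4.13 ± 0.33 in nulls under placebo and 4.03 ± 0.24 in nulls under E2. The genotype difference under E2 was -0.43 ± 0.24 (SE; 95% interval -0.93 to 0.07; limma adjusted p = 0.586), the largest in size of the 16 coregulator probes in that comparison. Its deviations from the group means correlated with those of the other Med1 probes at -0.45, -0.19 and -0.11 over 20 arrays, and the other Med1 pairs at 0.10, 0.12 and 0.31.

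The other Med1 probes stayed close. At A_51_P324082 (chr11:98015632-98015690) the group means were 2.39 ± 0.17 (SD, n = 5), 2.39 ± 0.10, 2.46 ± 0.14 and 2.42 ± 0.06 for wild-type placebo, wild-type E2, null placebo and null E2, with an E2 effect in wild types of 0.00 ± 0.09 (SE; 95% interval -0.19 to 0.18). At A_52_P176300 the effect was 0.07 ± 0.08 and at A_55_P2024095 it was 0.16 ± 0.13. A 2-fold change of Med1 lay outside the interval at all 4 probes in both E2 comparisons.

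**Figure D3:**
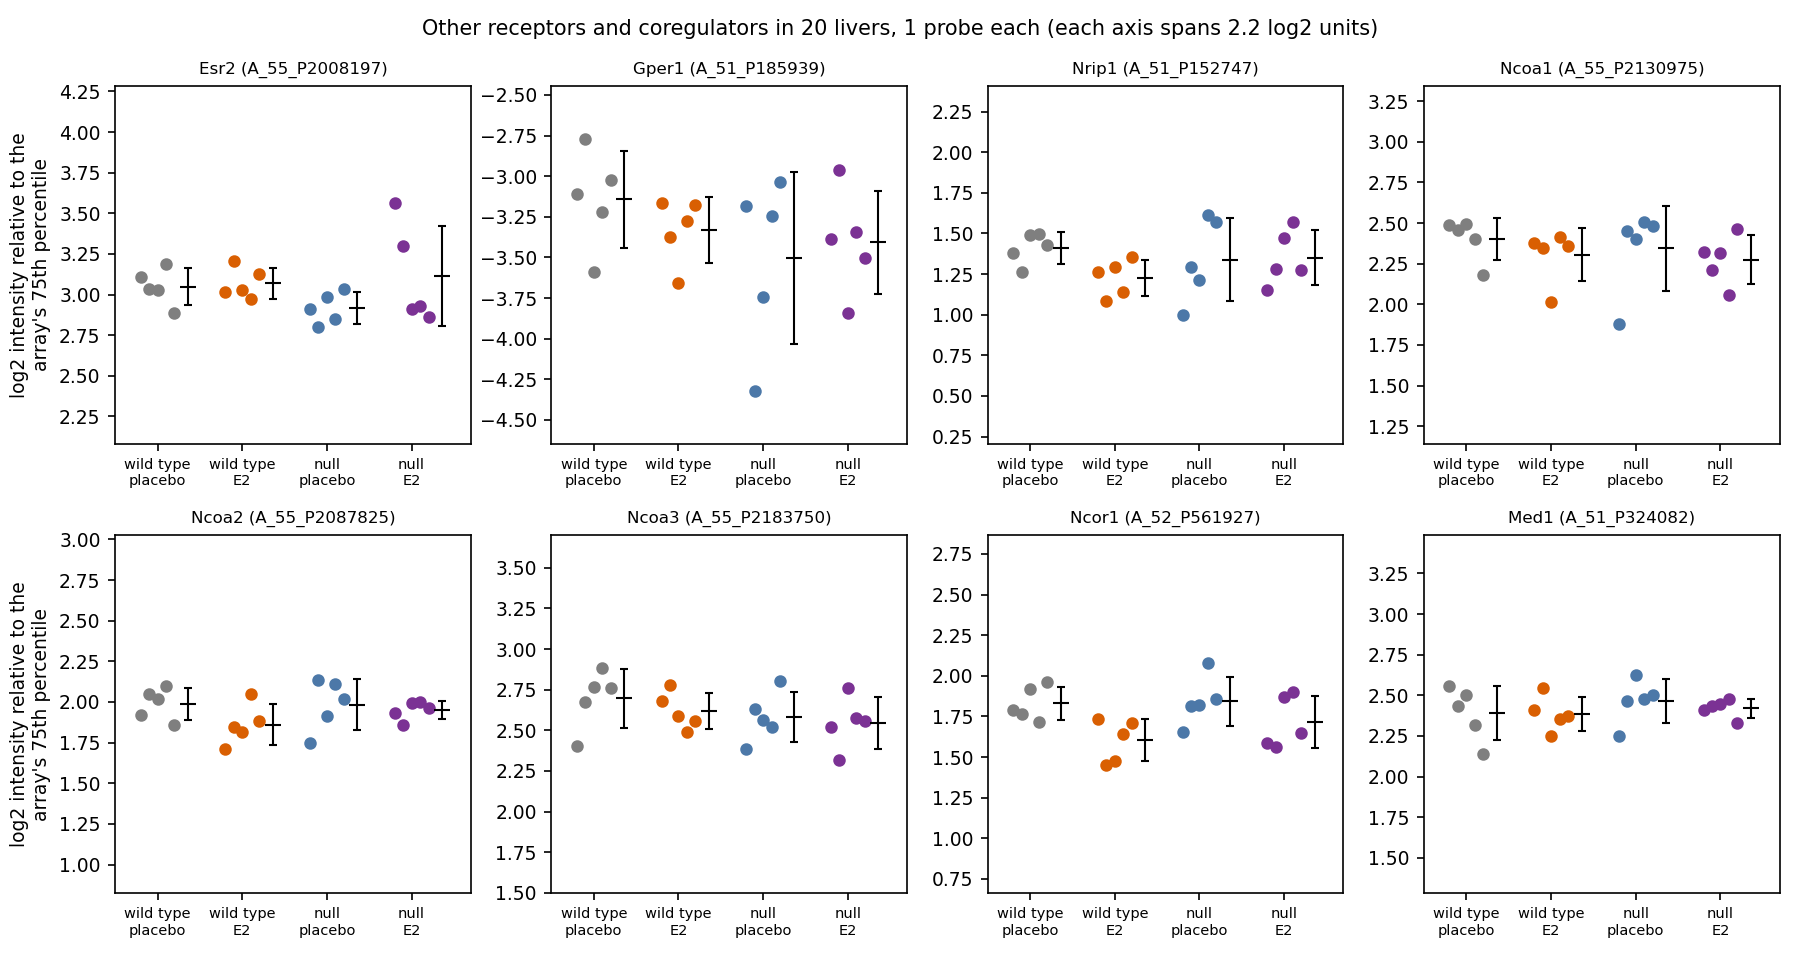
Log2 level (y axis, relative to each array's 75th percentile, each panel spanning 2.2 units) of Esr2, Gper1 and 6 coregulators at 1 probe each in 5 livers per group, with 1 circle per mouse and black bars for the mean ± SD. The groups overlap in every panel, and the Esr2 panel shows the pair of null E2 livers at 3.57 and 3.30.

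**Figure D4:**
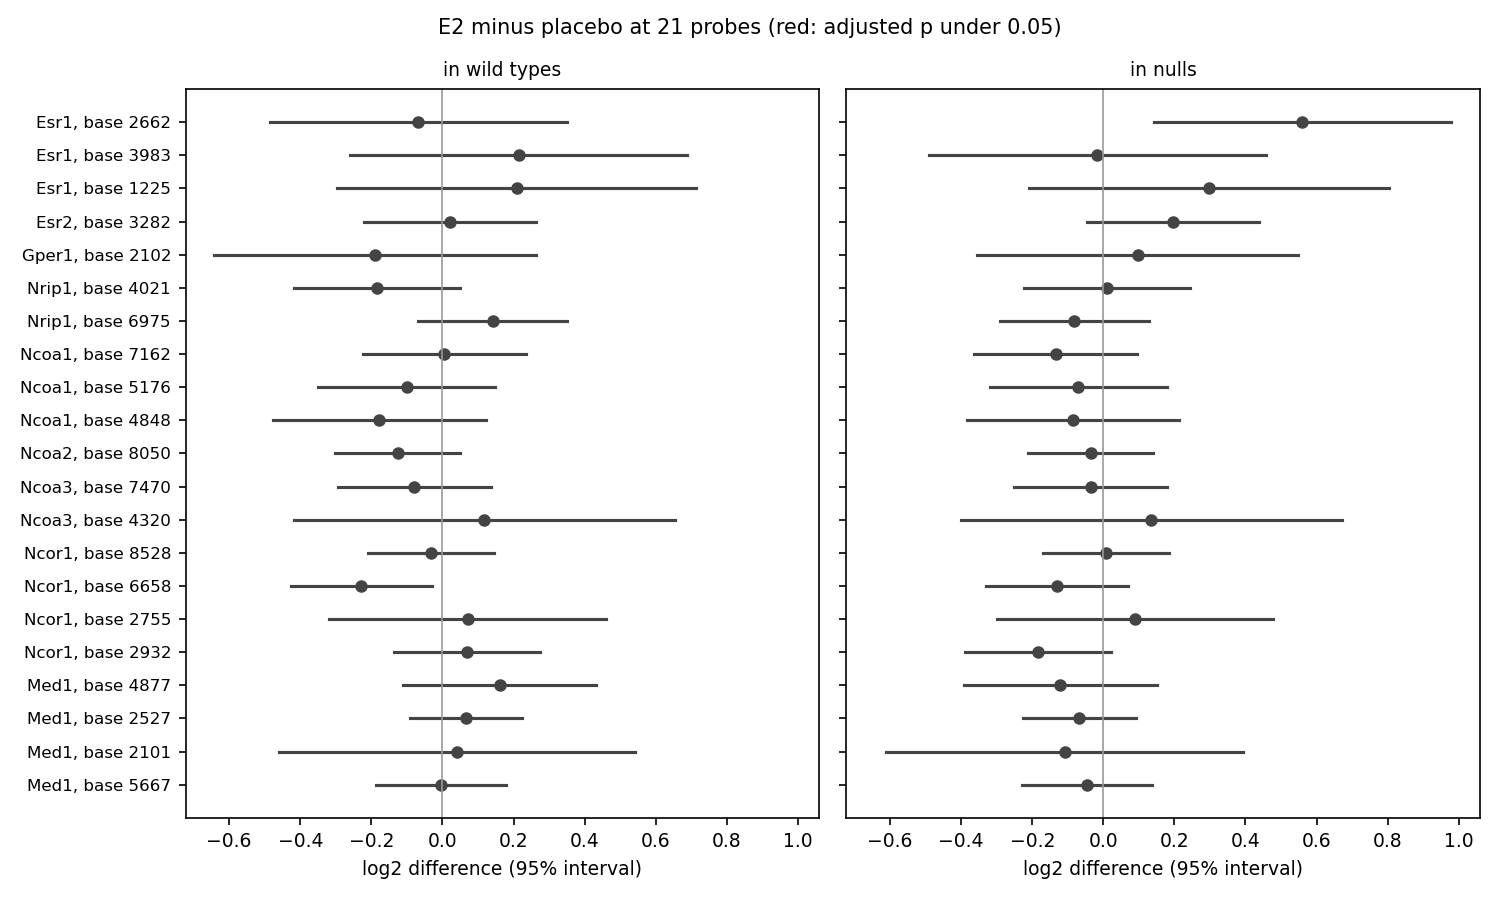
E2 minus placebo log2 difference (x axis) at the 21 tested probes in wild types (left) and nulls (right), with 95% intervals as lines and red for an adjusted p under 0.05. No probe is red, and Esr1 at A_66_P138072 in nulls (0.56) compares groups with 0 and 2 of 5 arrays well above background.

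The wider machinery was described with lists of other coactivators, other corepressors, Mediator subunits, receptor chaperones, other nuclear receptors and pioneer or partner factors, 139 genes measured at their brightest probe. For E2 in wild types 1 of 139 was called, lower, against 0.4% of all 15240 named genes, and 11 had an unadjusted limma p under 0.05, against 8.3%. No list gene was called for E2 in nulls, for the difference between the E2 effects or for genotype under placebo or E2, where 9, 11, 18 and 10 of 139 had an unadjusted limma p under 0.05, against 6.04%, 7.46%, 11% and 10.3% of all named genes. Over all named genes 50.5% lay above 0 for E2 in wild types. Of the 27 coactivators measured, 12 lay above 0 and 15 below for E2 in wild types, and of 22 corepressors 8 and 14. Of 30 Mediator subunits 10 lay above 0 and 20 below, and of 35 nuclear receptors 11 and 24. Among the 13 receptor chaperones, which hold the unliganded receptor ready to bind hormone, 2 lay above 0 and 11 below, with a median of -0.11 and no call. For E2 in nulls, where 44.0% of all named genes lay above 0, 8 chaperones lay above and 5 below, with a median of 0.08. There the coactivators had 10 above and 17 below, the corepressors 4 and 18, the Mediator subunits 9 and 21 and the nuclear receptors 16 and 19. Pioneer or partner factors had 5 above and 7 below in both genotypes. For E2 in wild types the median over all 139 was -0.06 against 0.00 over all genes.

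The gene called was Cebpa, which encodes a liver transcription factor that shapes hepatocyte metabolism. At A_52_P168567 wild types were at 4.75 ± 0.16 (SD, n = 5; 4.56 to 4.98) under placebo and 4.12 ± 0.25 (3.78 to 4.38) under E2. Cebpa fell by 0.63 ± 0.12 (SE; limma adjusted p = 0.0214). In nulls the means were 4.50 ± 0.17 and 4.49 ± 0.14, an E2 effect of -0.01, and the difference between the E2 effects was -0.61 ± 0.17 (adjusted p = 0.362). The value stayed between -0.85 and -0.53 in 32 alternatives, while the call was lost in 10 of them, with adjusted p from 0.0115 to 0.238 over all of them, which were run after the gene was seen to be called. It was lost with a slide block (adjusted p = 0.149), with median (0.238, at a value of -0.85) or quantile (0.0565) scaling, with no filter (0.0748) and with only the compared arrays (0.174). Single mice ended it too: wild-type placebo replicate 3 (0.0689), 4 (0.0737) or 5 (0.0789) and wild-type E2 replicate 1 (0.0675) or 2 (0.0837). The summed intensity of 2 red cell markers, relative to the 75th percentile, ran from 106 to 150 in wild types under placebo and from 156 to 240 under E2. In nulls it ran from 136 to 201 under placebo and from 149 to 209 under E2. The part of red cells in the Cebpa result was not tested.

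Within groups the Esr1 probes A_52_P237077 and A_55_P2030883 had deviations from the group means that correlated at 0.78 over 20 arrays. A_66_P138072, which was not well above background on 8 of them, correlated with these at 0.48 and 0.74. The 20 pairs of probes for 1 gene had a median of 0.29, and the 190 pairs from different genes a median of 0.06. These are descriptions, since probes of an array share its RNA and its brightness. The genes whose deviations were most like those of Esr1 at A_52_P237077 were Calr (0.88), which encodes the endoplasmic reticulum chaperone calreticulin, Znhit1 (0.88), Spp2 (0.88), a secreted phosphoprotein, Txn2 (0.87), the mitochondrial thioredoxin, and Tm9sf2 (0.87). For Nrip1 at A_51_P152747 they were Dgkz (0.87), a diacylglycerol kinase, Dnmt3b (0.85), a DNA methyltransferase, Gm14207 (0.84), Dapk1 (0.83), a protein kinase, and Socs2 (0.82), a suppressor of cytokine signalling.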

How the data were processed

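Liver RNA of 20 mice was hybridised to 1-colour Cy3 arrays. Per the file headers, the deposited processed intensity of each spot was made with Agilent Feature Extraction 10.10.1.1 and is background-subtracted, and probe positions are on mm9. A deposited table holds the authors' own log2 values (32526 probes, column medians 7.85 in all arrays), used as an alternative; per the submitters' processing notes limma was used, with no version. Its centring and background treatment are not given in the sources used here.

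Here the log2 processed intensity minus the array's 75th percentile over 59305 non-control spots was used. Non-uniform and replicate-outlier spots were left out and spots of a probe averaged. limma 3.58.1 in R 4.3.3 fitted 4 group means (16 residual degrees of freedom), with 2-sided tests and Benjamini-Hochberg adjustment over 30958 probes, threshold 0.05, in 5 contrasts. The fit was tested on simulated data. SE is that of the fit and SD that of 5 mice. Array precision rests on their number.

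Groups came from the labelled genotype and treatment. Slides each held several groups, and within-slide values were computed. The members and gene lists were chosen with earlier results of these data known. Named are all member probes, list genes past the threshold (at most 4 per list and contrast) and the 5 likest genes for Esr1 and Nrip1. Marker lists were of hepatocytes, Kupffer, endothelial, stellate, cholangiocyte, red, fat, T, B and pancreas cells. Probe names were updated through RefSeq accessions (27235 probes), symbols (3581) or synonyms (565), and 24300 kept the file's name.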

Additional observations from a re-analysis of the deposited data

Results flagged for a closer look

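In 7 of 88 groups of 5 livers tested, at the 22 member probes, 1 liver stood far from the other 4 (gap over range above 0.71), where chance gives about 1 in 20. The null E2 replicate 2 stood high at Esr1 A_51_P474658 (-1.002, next -6.34, which was not well above background). The wild-type E2 replicate 1 stood high at Ncoa3 A_55_P2071868 (-1.45, next -2.81). The null placebo replicate 1 stood high at Med1 A_55_P2092501 (4.72, next 4.09) and low at Ncoa1 A_55_P2130975 (1.88, next 2.40). The wild-type E2 replicate 3 stood low at Ncoa1 A_55_P2130975 (2.02, next 2.35). The null placebo replicate 5 stood high at Ncor1 A_55_P2165974 (-1.38, next -1.76). The wild-type placebo replicate 3 stood high at Esr1 A_66_P138072 (-2.75, next -3.04).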

How the results depend on the processing

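The 36 alternatives included within-slide differences, which had no test. In the others the 18 member probes outside Esr1 had no call in any comparison (0 of 2812 values). Of 188 Esr1 genotype values with a test, 185 were called. The 3 lost were A_66_P138072 with normexp (-0.50 and -0.37) and A_55_P2030883 with only the arrays compared (-1.68, adjusted p = 0.133), where fewer arrays set the spread. With 1 probe per gene the count of called members was 1 under placebo and 1 under E2 in place of 3, because Esr1 then has 1 probe. Within slides Esr1 at A_52_P237077 differed by -1.47 on slide 2 under placebo, and by -1.79 on slide 1, -2.84 on slide 2 and -1.80 on slide 4 under E2; the cause was not tested. Leaving out 1 mouse at a time kept the member counts at 0 to 0 for E2 in wild types, in nulls and for their difference, and at 3 to 3 for genotype under placebo and under E2. Esr1 at A_52_P237077 then ranged from -2.17 to -1.86 under placebo and from -2.35 to -2.11 under E2.

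Array-wide counts moved more. With median scaling 40 probes were called for E2 in wild types (94 as reported), 0 for E2 in nulls (1), 24 for the difference between the E2 effects (57) and 64 for genotype under E2 (137). Without the filter the counts were 0 for E2 in nulls, 37 for the difference, 11 for genotype under placebo (19) and 88 under E2. With only the arrays compared they were 0 for E2 in nulls and 11 for genotype under placebo, and with 1 probe per gene 32 for the difference. With slide as a block 2 probes were called for E2 in nulls. The replicate block gave 2 probes for E2 in nulls, 12 for genotype under placebo and the same member counts (0, 0, 0, 3 and 3). Same-numbered arrays of different groups had deviations correlated from -0.15 to 0.24, and 5 of 20 arrays were closest to their own number, so the numbers were not taken as pairs. Leaving out 1 mouse moved the count for genotype under placebo from 9 (without wild-type placebo replicate 3) to 56 (without null placebo replicate 3). No list gene was called with median or quantile scaling for E2 in wild types, and Cebpa had a value of -0.85 with an adjusted p of 0.238 with median scaling. Signal near background limits Esr1 at A_51_P474658 and A_66_P138072.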
